A study of Mus musculus with 15 samples.

Results

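The genes of the cytosolic ribosome's protein components were followed across 15 RNA libraries of mouse hematopoietic progenitors. Members were taken by symbol: names that begin with Rpl or Rps and go on with a number, together with Rplp0, Rplp1, Rplp2 and Rpsa. Of 90 genes that matched, 6 that the GENCODE M21 annotation lists as pseudogenes were left out. This gave 84 genes, 52 of the large and 32 of the small subunit, of 55359 genes in the files, and the genes lie on 19 chromosomes.

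The cells are fetal liver hematopoietic progenitors immortalized with Hoxb8, a homeobox gene that holds progenitors in a dividing state, and were grown in medium with β-estradiol. One line is wild type for the RNA helicase gene Ddx41 (hi-Ddx41+/+) and the other heterozygous for its knockout (hi-Ddx41+/-). All groups were incubated with a retrovirus for 2 d and sorted for the GFP of the vector. WT empty is the wild-type line with the empty vector. Het empty, Het DDX41, Het G173R and Het R525H are the heterozygous line with the empty vector, wild-type DDX41, and the G173R and R525H forms of DDX41 found in human myeloid disease. Each group has 3 libraries, numbered 1 to 3, made from total RNA after removal of ribosomal RNA. Nothing in the labels says that the 3 came from separate cultures or that a genotype has more than 1 line, so p-values measure only the spread between these libraries, and genotype and line cannot be told apart.

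Each library was put in its group by its title. For 12 of the 15 tables the name carries another group code than the title does, so which heterozygous group is which rests on the titles. Ddx41 was at 58.8, 63.4 and 55.6 CPM (each library's counts put on the same total) in WT empty and at 29.4, 33.0 and 28.7 in Het empty, and between 27.8 and 36.9 in the 9 libraries with a DDX41 vector. This matches the labelled genotypes but does not check the vectors, whose DDX41 was not told from Ddx41 here. Total expected counts ran from 22104066 to 49145873. The 7 progenitor markers (Kit, Cd34, Flt3, Ptprc, Spi1, Myb and Runx1) together held 884 to 1310 TPM (a share of all transcripts that is scaled by their length), while 7 erythroid markers summed to 2.69 to 11 TPM, 5 of stroma and endothelium to 1.76 to 7.68 and 4 of fetal liver hepatocytes to 0.01 to 0.87. Alb, Ttr, Hba-a1, Col1a1, Col3a1 and Cdh5 of these lists were at 0 in all 15 libraries, whereas Gata1, Afp and the vessel marker Pecam1 (6.60 to 22 CPM) were detected.

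Ribosomal proteins coat the ribosomal RNA of the small subunit, which reads the mRNA, and of the large subunit, which joins amino acids. They are needed in equal numbers, 1 of each per ribosome except in the stalk of the large subunit, and surplus protein is degraded. In vertebrates their mRNAs begin with a cytosine and a run of pyrimidines, the 5′ terminal oligopyrimidine (TOP) motif, through which growth signals set their translation together. Loss of 1 copy of several of these genes causes Diamond-Blackfan anemia, and loss of RPS14 is part of a myelodysplastic syndrome, which is why the family is watched in blood progenitors.

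Annotated starts of the family were searched for the TOP motif first. Windows of 300 bases around annotated starts were held in the RefSeq table (GRCm38.p6) for 64 of the 84 genes, in 76 windows. A C at the annotated start followed by at least 4 bases of C or T stood in 13 genes, or 17.1% of the windows, against 2.51% of all 32851 windows. Looking within 20 bases of the start for a C followed by 6 pyrimidines gave 36 genes, or 48.7% of windows against 19.2% of all. The ETS-type motif CCGGAAGT, on either strand and anywhere in the window, stood in 12 genes, or 15.8% of windows against 3.89%. Starts of 10 genes that the values below return to are printed from 15 bases before to 15 bases from the start, 5′ to 3′ on the gene's strand. Capitals mark a pyrimidine run at the annotated start, and windows without capitals have none there.
Rpl35 (chr2:39005117-39005146, minus strand): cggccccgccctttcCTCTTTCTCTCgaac
Rps10 (chr17:27635230-27635259, minus strand): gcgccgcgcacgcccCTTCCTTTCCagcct
Rps6 (chr4:86857353-86857382, minus strand): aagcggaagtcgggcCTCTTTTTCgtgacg
Rpl28 (chr7:4792950-4792979, plus strand): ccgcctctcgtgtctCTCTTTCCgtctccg
Rps27 (chr3:90213634-90213663, minus strand): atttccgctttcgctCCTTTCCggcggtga
Rplp2 (chr7:141447636-141447665, plus strand): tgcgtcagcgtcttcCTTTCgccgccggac
Rps26 (chr10:128626492-128626521, minus strand): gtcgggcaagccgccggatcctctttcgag
Rpl22l1 (chr3:28805493-28805522, plus strand): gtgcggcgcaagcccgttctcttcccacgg
Rps27l (chr9:66946071-66946100, plus strand): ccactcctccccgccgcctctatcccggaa
Rpl11 (chr4:136053379-136053408, minus strand): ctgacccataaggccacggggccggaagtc

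The starts printed are a choice, and a run is more frequent among them than in the 64 genes with a window. Rpl22 and Rplp0, named below, and a second start of Rps27l have no run and are not printed. Among the starts printed, the runs differ in length, from 11 pyrimidines in Rpl35 to 5 in Rplp2. In Rpl22l1 and Rps26 the annotated first base is not a C, and a pyrimidine stretch lies a few bases downstream. A missing run says only that these letters are not at the annotated start, which can lie a few bases from the start used in these cells.

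Ribosomal protein mRNAs were among the most abundant in these progenitors. Mean TPM was at or above 1000 for 69 of the 84 genes, and 61 of the 100 genes with the highest mean TPM were members. The median of the 81 genes that passed the filter on low counts was 1660 TPM, 1440 for the large and 2100 for the small subunit. Highest was Rps12, a small subunit protein, at 4490 ± 373 TPM (SD over 15 libraries). It was followed by Rpl41, a peptide of the large subunit, at 3890 ± 306, and by Rps27 at 3880 ± 419, Rps29 at 3370 ± 260 and Rps28 at 3070 ± 245. The SDs of Rpl41 and Rps27 overlap. Rps27 also had the shortest effective length, 101 bases, of a family with a median of 421, and TPM of such short transcripts depends on how that length was estimated. Lowest among the genes tested were Rpl7l1 at 95.6 ± 11.7 TPM, Rpl22l1 at 355 ± 37.8 and Rps27l at 475 ± 47.4, all of them paralogs of a more abundant member. Rpl27a at 577 ± 39.9 and Rpl35 at 627 ± 46.4 came next. For proteins needed in equal numbers, the mRNAs thus spread over a wide range, with 78 of 84 genes between 500 and 5000 TPM.

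**Figure D1:**
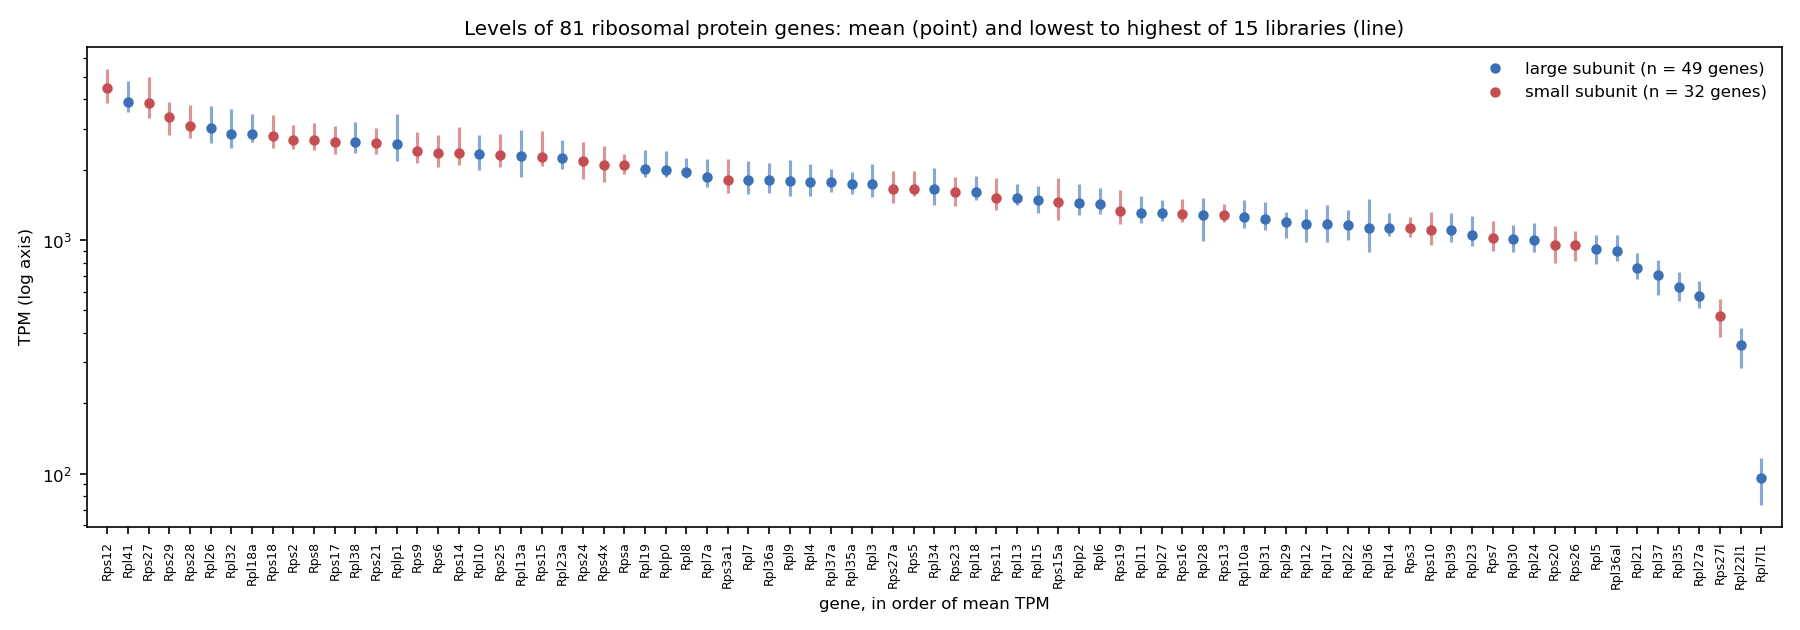
Mean TPM (log axis) of each of the 81 genes that passed the filter, in order, with a line from the lowest to the highest of 15 libraries, blue for the large and red for the small subunit. Levels fell from 4490 in Rps12 to 95.6 in Rpl7l1, and most genes lay between 500 and 5000.

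Single members varied little between libraries. The coefficient of variation of TPM over 15 libraries had a median of 7.81% in the family, and 73 of 81 genes were under 10%. Over all 8383 genes with a mean of at least 5 TPM the median was 12.8% and 24.1% were under 10%, and over the 184 other genes with at least 300 TPM it was 11.7%. Rpl8 (5.41%), Rpl13 (5.51%) and Rpsa (5.59%), all core components, varied least. Rpl36 (16.4%), Rplp1 (13.8%) and Rpl13a (13.7%) varied most. For Rpl13a this held on the TPM scale. By CPM its highest library was 1.35 times its lowest, against 2.01 for Rpl36 and 1.73 for Rplp1. Some of this spread lies between groups, since all groups enter it.

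Summed over the family, ribosomal protein mRNA made up 13.1 to 16.9% of all TPM and 6.66 to 7.86% of all expected counts. The share of TPM was 14.4, 14.2 and 16.9% in WT empty and 13.8, 13.2 and 13.4% in Het empty, so that every wild-type library lay above every Het empty library. It was 14.1, 13.9 and 14.6% in Het DDX41, 14.0, 13.1 and 14.2% in Het G173R and 14.5, 14.1 and 14.5% in Het R525H. The order did not hold on other scales. Mitochondrial and structured noncoding RNA genes held 37.0, 41.5 and 32.7% of TPM in WT empty and 40.6, 45.3 and 44.8% in Het empty. With those genes set aside the family held 24.1 ± 1.17% of TPM in WT empty and 23.9 ± 0.569% in Het empty (SD, n = 3), and the groups overlapped. By expected counts the values were 7.19 ± 0.472% and 7.24 ± 0.320%. The ratio of large to small subunit TPM was 1.15 in all 3 WT empty libraries and 1.16 to 1.19 in the 12 heterozygous ones, a small difference without overlap that was not tested.

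**Figure D2:**
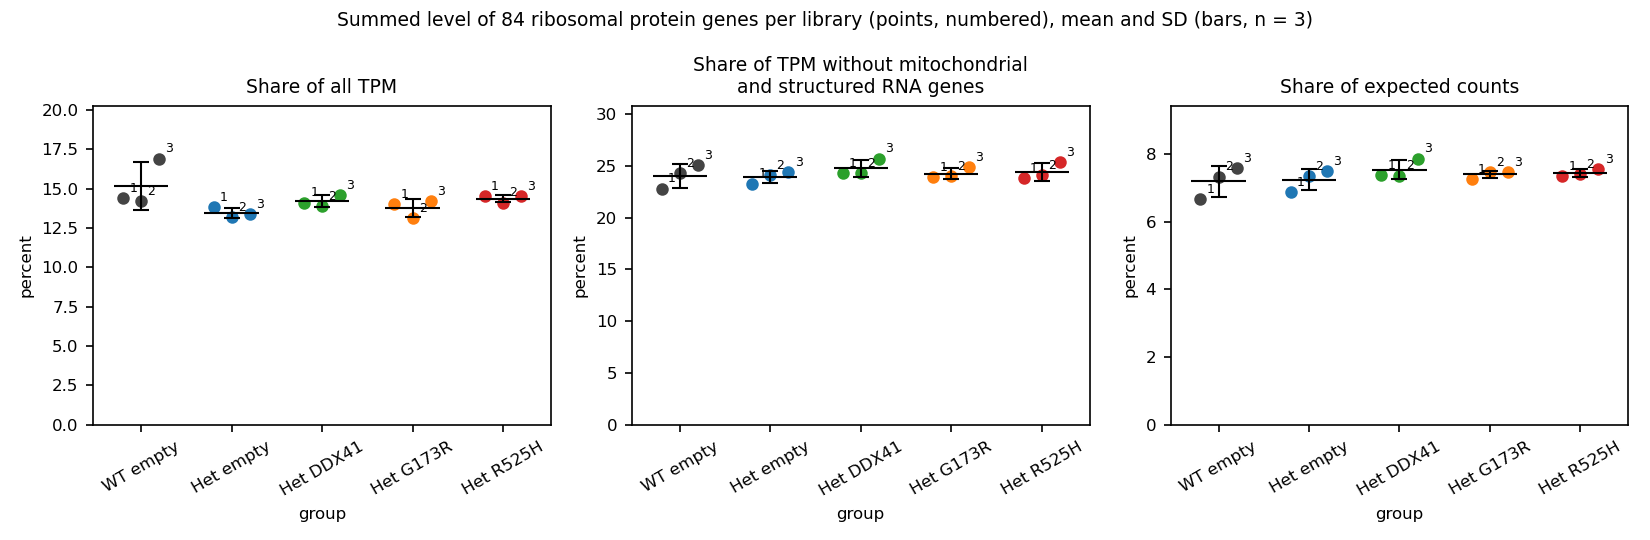
Summed level of the 84 genes in each library (points, numbered 1 to 3) with mean and SD (n = 3) per group, as percent of all TPM, of TPM without mitochondrial and structured RNA genes, and of expected counts. WT empty 3 stands at 16.9% of all TPM in the left panel, and the groups overlap in the other panels.

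Each comparison between groups was tested for all 14548 genes that passed the filter, 81 of them members, with edgeR's quasi-likelihood test and Benjamini-Hochberg adjustment, and a gene was called at an adjusted p under 0.05. No member was called in any of 7 comparisons or in the test for any difference among the 5 groups. The last called 538 genes (3.70% of all), and 1 member had an unadjusted p under 0.05, against 11.9% of all genes. The unadjusted 95% interval of a member's log2 fold change reached 0.133 to 0.457 to either side of its estimate, with a median of 0.172. All 81 intervals lay within 1 log2 unit of no change in every comparison, and between 78 and 80 of 81 lay within 0.5. In bulk RNA, fewer cells that carry an mRNA and less of it per cell cannot be told apart.

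In the heterozygous line, where Ddx41 mRNA was lower, no ribosomal protein mRNA was called. Between Het empty and WT empty 532 genes (3.66%) were called, 0 of them members, and by edgeR 0 members had an unadjusted p under 0.05 against 11.6% of all genes. The smallest adjusted p of a member was 0.513. With the replicate number as a block 1352 genes were called, again 0 of them members (smallest adjusted p = 0.221 by edgeR). Groups overlapped for every member, whereas all 3 Het empty libraries lay above all 3 WT empty libraries for 8.33% of genes and below for 8.82%. Log2 fold changes were positive for 70 of 81 members against 49.8% of all genes, with a median of 0.052 in the family and -0.001 over all genes. Without WT empty 1 the fold change was positive for 30 of 82 genes with a median of -0.014. Without both libraries numbered 1 it was positive for 54 of 82 with a median of 0.021, beside -0.003 over all genes. The direction turned on the TPM scale, where it was positive for 2 of 81 with a median of -0.169, beside -0.156 for all genes.

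Rpl36, a large subunit protein, had the largest difference between the lines. It stood at 140, 132 and 142 CPM in WT empty and at 141, 181 and 230 in Het empty, a log2 fold change of 0.42 ± 0.21 (SE; edgeR unadjusted p = 0.0691, adjusted p = 0.513). The wild-type values were close together and the heterozygous ones spread upward from them, with Het empty 1 at the wild-type level. Rplp2, which forms the stalk that recruits elongation factors, had 321, 327 and 322 CPM against 312, 371 and 489 (0.27 ± 0.17). Its partner Rplp1 had 605, 599 and 616 against 588, 723 and 871 (0.26 ± 0.19). In both, Het empty 1 was the lowest and Het empty 3 the highest of the 6 libraries. Rplp0, on which the stalk is built, differed less (2300 ± 286 and 2470 ± 229 CPM). Rps26, which contacts mRNA near the exit channel and is a Diamond-Blackfan anemia gene, had 344, 404 and 405 CPM against 393, 440 and 487 (0.19 ± 0.12). The largest differences downward were small: Rpl7l1, -0.06 ± 0.11, Rps3a1, -0.04 ± 0.077, and Rps25, -0.04 ± 0.071.

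Of the other preset genes whose loss causes anemia or myelodysplasia, beside Rps26 above, none was called. Rps14 had 757, 953 and 974 CPM in WT empty and 864, 907 and 963 in Het empty, and its means in the vector groups were 966 ± 48.4 (Het DDX41), 918 ± 19.6 (Het G173R) and 871 ± 11.1 (Het R525H). Rps19, the gene most often affected in Diamond-Blackfan anemia, had 557, 708 and 699 against 651, 705 and 659 CPM. WT empty 1 was lowest in both genes, and the groups overlapped. Rpl5 and Rpl11, which with the smallest RNA of the large subunit bind Mdm2 when ribosome assembly stalls, differed by 0.03 ± 0.072 and 0.04 ± 0.067 between the lines. Rpl35a differed by 0.10 ± 0.07 (443 ± 22.6 and 474 ± 23.1 CPM). Over the 7 comparisons, the log2 fold changes of Rpl5 ran from -0.03 to 0.09 and those of Rps19 from -0.08 to 0.06.

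**Figure D3:**
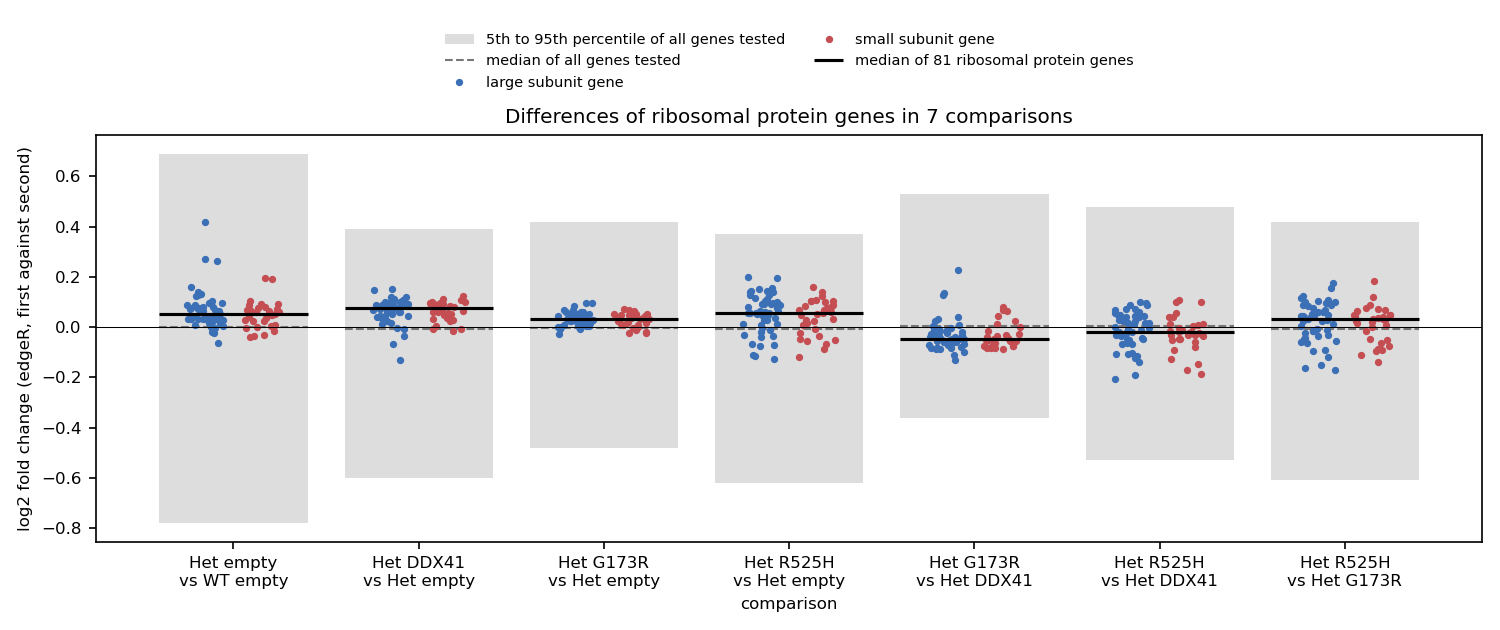
Log2 fold change of each of 81 genes (points, blue large and red small subunit) in the 7 comparisons, with the family's median (black line), the median of all genes tested (dashed) and their 5th to 95th percentile (grey). All points lie inside the grey band, and Rpl36, at 0.42, is the farthest from 0.

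Wild-type DDX41 in the heterozygous line left the family without a call. Against Het empty, 0 of 14548 genes were called by edgeR (0%), and unadjusted p-values fell under 0.05 for 1.75% of all genes and 0 members. DESeq2 called 2 genes, neither of them a member. The fold change was positive for 73 of 81 members against 47.8% of all genes, with a median of 0.075. All 3 Het DDX41 libraries lay above all 3 Het empty libraries for 18 members, against 3.92% of genes, and below for 0, against 3.33%. Without Het empty 1, the fold change was positive for 54 of 82 genes and the median was 0.021. Rpl22, an RNA-binding large subunit protein that early lymphoid cells depend on, had 309, 325 and 324 CPM in Het empty and 355, 332 and 376 in Het DDX41 (0.15 ± 0.074, edgeR unadjusted p = 0.0657, adjusted p = 1). Rpl30 had 407, 452 and 432 against 466, 461 and 478 (0.12 ± 0.068). In both genes the groups did not overlap. Of the 8 negative members, Rpl36 (-0.13 ± 0.21), Rplp2 (-0.07 ± 0.17) and Rplp1 (-0.04 ± 0.19) lay farthest from 0, and these 3 turned positive without Het empty 3.

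With the G173R form the smallest differences were seen. Against Het empty 0 genes (0%) were called by edgeR and 1 by DESeq2, and 0.605% of genes and 0 members had an unadjusted p under 0.05. The fold change was positive for 73 of 81 members against 48.8% of genes, with a median of 0.031. It was positive for 11 of 82 (median -0.026) without Het empty 1 and for 40 (median -0.001) without Het G173R 2. Groups separated upward for 1 member, Rpl22 (0.06 ± 0.074), against 1.65% of genes, and downward for 0, against 1.27%. Rpl27a (0.08 ± 0.085), Rpl13 (0.07 ± 0.077) and Rpl11 (0.06 ± 0.067) had the smallest p among positive members. Rps27l, Rpl7l1 and Rps19 lay between -0.03 and -0.02.

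With the R525H form too, no member was called. Against Het empty edgeR called 2 genes (0.0137%), and 3 of 81 members had an unadjusted p under 0.05, a share below the 4.98% of all genes. Rpl30, which lies at the contact between the subunits, had 407, 452 and 432 CPM in Het empty and 493, 473 and 512 in Het R525H, a log2 fold change of 0.19 ± 0.068 (edgeR unadjusted p = 0.0126, adjusted p = 0.723). Rpl22l1, the paralog of Rpl22, had 105, 110 and 114 against 122, 119 and 136 (0.20 ± 0.081, edgeR adjusted p = 0.919). Rpl35, whose start carries the longest pyrimidine run printed above and whose protein sits by the exit of the peptide tunnel, had 430, 468 and 449 against 499, 486 and 504 (0.15 ± 0.065, edgeR adjusted p = 0.999). In all 3 genes every R525H library lay above every Het empty library. Rpl37a went the other way, with 590, 618 and 633 against 564, 562 and 579 CPM (-0.11 ± 0.08), as did Rpl28 (-0.12 ± 0.094) and Rps15 (-0.12 ± 0.10). Over the family, groups separated upward for 9 members, against 6.39% of genes, and downward for 1, against 5.22%. The fold change was positive for 60 of 81 members against 48.3% of genes, with a median of 0.056, and for 41 of 82 with a median of 0 without Het empty 1.

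Between the DDX41 forms no member was called either. G173R against wild-type DDX41 gave 0 calls (0%) by edgeR, 1 with the replicate block and 3 by DESeq2, none of a member, with unadjusted p under 0.05 in 1.54% of genes and 0 members. Members were positive in 14 of 81 against 51.6% of genes, with a median of -0.047. Groups separated downward for 9 members, among them Rpl7 (-0.11 ± 0.075), Rpl7a (-0.10 ± 0.081) and Rps6 (-0.08 ± 0.074), against 3.40% of genes, and upward for 0, against 2.83%. Without Het DDX41 3 the median was 0.007 with 43 positive. The comparison of G173R with wild-type DDX41 and that of each with Het empty share libraries and are not separate evidence.

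R525H against wild-type DDX41 gave 0 calls (0%) by edgeR, 59 with the replicate block and 32 by DESeq2, none of a member. By edgeR, 1 member and 3.99% of genes had an unadjusted p under 0.05. That member was Rpl37a, at 652, 640 and 675 CPM in Het DDX41 and 564, 562 and 579 in Het R525H (-0.21 ± 0.08, edgeR unadjusted p = 0.0221, adjusted p = 1). Rpl28 (-0.19 ± 0.094) and Rps27 (-0.18 ± 0.092) followed. For Rpl28 the groups did not overlap, whereas Rps27 had 418 to 505 CPM over these libraries apart from Het R525H 3 at 357. Members were positive in 33 of 81 against 51.3% of genes, with a median of -0.019, which turned to 0.020 on the TPM scale (0.028 for all genes) and to 0.039 without Het DDX41 3. Groups separated upward for 3 members, against 5.16% of genes, and downward for 9, against 5.51%.

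R525H against G173R, the comparison of the disease forms, called 12 genes (0.0825%) by edgeR and 141 with the replicate block, none a member. Without the block 1 member had an unadjusted p under 0.05, against 6.39% of genes. Rpl30 had 448, 465 and 415 CPM in Het G173R and 493, 473 and 512 in Het R525H (0.16 ± 0.068, edgeR unadjusted p = 0.0383, adjusted p = 0.727). Rpl22l1 had 111, 106 and 117 against 122, 119 and 136 (0.17 ± 0.081). Groups did not overlap in either gene. Rpl28 (-0.15 ± 0.094), Rpl41 (-0.16 ± 0.11) and Rps27 (-0.14 ± 0.092) lay lower in R525H. Members were positive in 53 of 81 against 48.4% of genes, with a median of 0.033, and groups separated upward for 5 members, against 5.84% of genes, and downward for 3, against 5.28%.

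**Figure D4:**
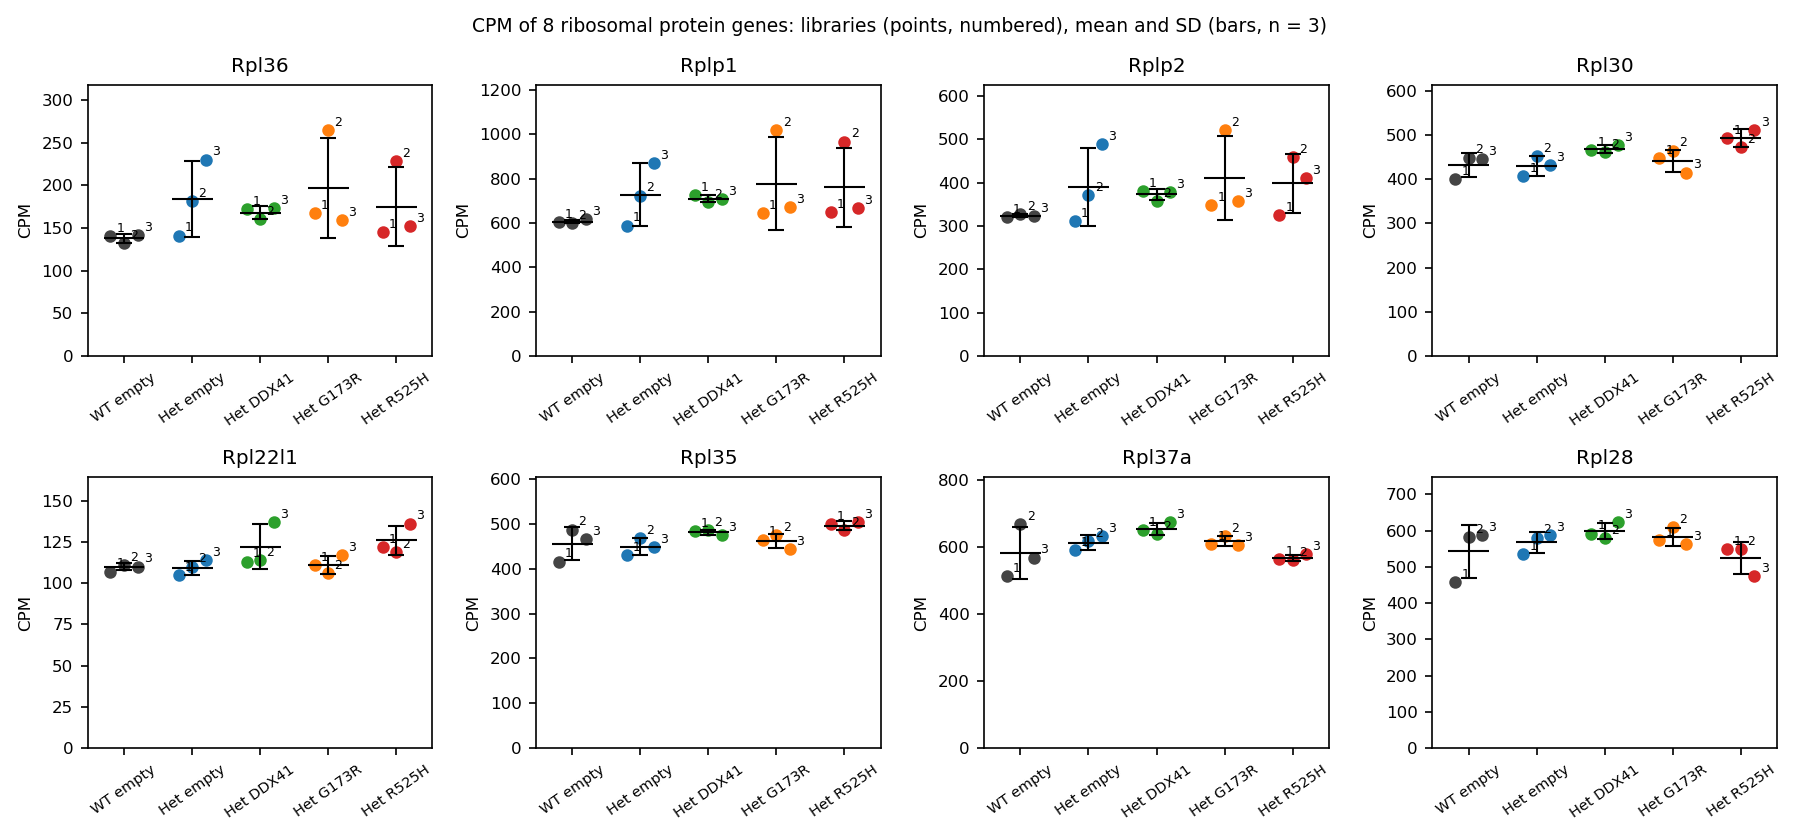
CPM of 8 ribosomal protein genes in each library (points, numbered 1 to 3) with mean and SD (n = 3) per group. Rpl36, Rplp1 and Rplp2 spread upward in 3 of the heterozygous groups, while Rpl30, Rpl22l1 and Rpl35 were higher and Rpl37a lower in Het R525H than in Het empty without overlap.

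Some libraries stood apart within their group over most of the family. In WT empty 1, 80 of 81 members were below their own mean over the 15 libraries, with a median deviation of -0.213 on the log2 CPM scale, and Rps10 lowest at -0.39. In Het empty 1 all 81 were below it, with a median of -0.112. Members were high in Het DDX41 3, with a median of 0.094. WT empty 1 and Het empty 1 were thus both low. The other libraries numbered 1 had median deviations of 0.042 (Het DDX41), -0.008 (Het G173R) and 0.038 (Het R525H). Leaving out WT empty 1 and Het empty 1 together gave a median difference between the lines of 0.021 with 0 members called.

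A smaller set moved apart from the rest. Rpl36 was at 230 CPM in Het empty 3, 265 in Het G173R 2 and 228 in Het R525H 2, and at 132 to 181 in the other 12 libraries. Rplp1 was at 871, 1020 and 967 CPM in the same libraries and at 588 to 725 elsewhere. Rplp2 followed with 489, 522 and 458 CPM, against 312 to 410 elsewhere. Further members, among them Rps10, Rps26, Rpl12, Rps13 and Rpl13, were also highest in these 3 libraries (429, 464 and 431 CPM for Rps10), with smaller gaps to the others. Across the 81 members, the deviations of these libraries from the family's means correlated with r = 0.85 between Het empty 3 and Het G173R 2. The r was 0.82 between Het G173R 2 and Het R525H 2 and 0.69 between Het empty 3 and Het R525H 2. This describes genes that are not independent. Rpl36, Rplp1 and Rplp2, by which the 3 libraries were picked, are among them, so r is not separate evidence. Other pairs were also alike, with 0.81 between Het DDX41 3 and Het G173R 3 and 0.70 between WT empty 2 and Het empty 1. Libraries of the same group had a median r of -0.16 (15 pairs, -0.63 to 0.70). The same 3 libraries had the highest TPM of Rpph1, the RNA of ribonuclease P: 15682, 18090 and 17111, against 4653 to 10478 in the other 12. Its part in these values was not tested.

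**Figure D5:**
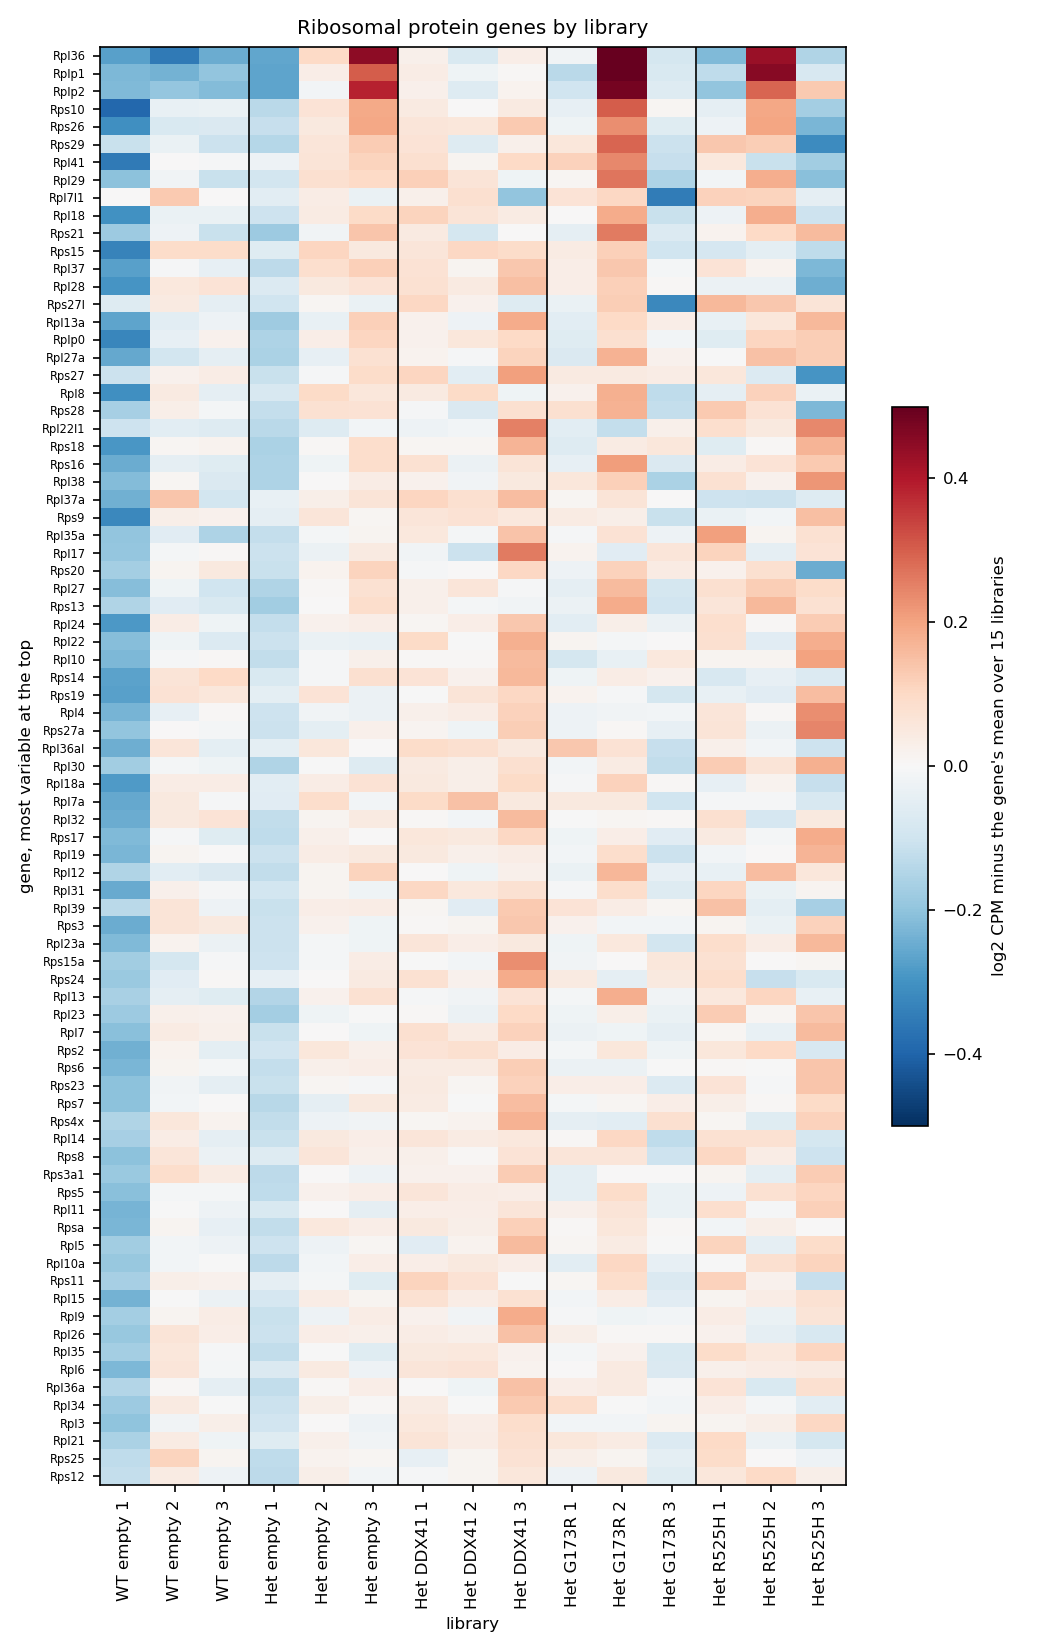
Each of 81 genes (rows, most variable at the top) in each library (columns, by group), coloured by log2 CPM minus the gene's mean over 15 libraries; colours end at 0.5 in either direction. WT empty 1 and Het empty 1 are blue down the column, and Rpl36, Rplp1 and Rplp2 are red in Het empty 3, Het G173R 2 and Het R525H 2.

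Several members have a paralog among the members, and the share of the paralog was followed within each pair. Rpl22l1 made up 21.8 to 24.7% of the TPM of Rpl22 and Rpl22l1 together over the 15 libraries, and Rpl36al 30.3 to 35.1% of the pair with Rpl36a. Rpl7l1, which acts in ribosome assembly, made up 3.93 to 5.72% of the pair with Rpl7. Rps27l, a p53 target, made up 12.2, 12.2 and 13.2% of the pair with Rps27 in Het R525H and 8.71 to 11.6% in the other 12 libraries. In these shares, R525H (12.5 ± 0.540%) thus did not overlap with any other group, such as Het empty (10.8 ± 0.498%); the difference of the shares was not tested. Neither gene was called: Rps27l had 150, 147 and 140 CPM in Het R525H against 125, 135 and 131 in Het empty (0.16 ± 0.094, edgeR unadjusted p = 0.112). By CPM, Rps27l in Het R525H overlapped other groups, with 146 in Het G173R 2 and 144 in Het DDX41 1. In Het R525H 3, which had the highest share, Rps27 was at 357 CPM, its lowest value in the 15 libraries. The testis and muscle paralogs were near absent. Rpl10l and Rpl39l had 0 counts in all 15 libraries, which allows up to 3 counts a library, or 0.136 CPM of the total in the shallowest (counting error only). Rpl3l had 74 counts in all, spread over 13 libraries, and at most 0.0248% of the pair with Rpl3. Reads of the family can match processed pseudogenes and were divided by the authors' estimate. The 322 pseudogene symbols that carry the family's names and the ending -ps held 343 to 517 TPM in all, against 130678 to 168980 for the members. Pseudogenes under other names are not in this sum. Among the tested members, 38 had an expected count that was not a whole number in any of the 15 libraries. For 13 it was whole in all of them. The sum thus does not measure how many reads were divided between members and pseudogenes, which was not tested.

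Members with and without the start motif were set side by side, with no test. Between the lines, the 13 genes with a pyrimidine run at the annotated start had a median log2 fold change of 0.065 and the 48 tested genes with a window but no run 0.046. In Het DDX41 against Het empty these were 0.075 and 0.074, and in Het R525H against Het empty 0.053 and 0.058. Members with a run had both signs: in R525H, Rpl35 was at 0.15 and Rpl28 at -0.12.

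Genes that share the translation programme gave few calls. The 20 further genes with TOP-type mRNAs, such as the elongation factor Eef1a1, had 0 called in each comparison. Npm1, which helps to export and assemble ribosomes, had the smallest p between the lines (2360 ± 116 and 2660 ± 95.5 CPM in WT empty and Het empty, edgeR adjusted p = 0.324). Rack1 and Fau, ribosomal proteins with other names, belong to that list. They stood at 1640 ± 127 and 699 ± 83.6 CPM in WT empty and at 1660 ± 96.2 and 815 ± 111 in Het empty. Of 16 regulators of TOP mRNA translation none was called between the lines. Eif4ebp1, a repressor of cap-dependent translation, had 64.9, 80.1 and 110 CPM against 103, 111 and 147 (0.50 ± 0.18, edgeR adjusted p = 0.211).

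Ribosome assembly genes also had no call. Of 37 biogenesis factors and 10 dedicated chaperones 0 were called in any of the 7 comparisons. In Het R525H against Het empty 33 of the 37 biogenesis factors were positive, beside 48.3% of all genes, with a median of 0.093, beside -0.006. Polr1c, shared by the polymerases that make ribosomal and transfer RNA, had 58.5, 62.9 and 57.7 CPM in Het empty. It had 70.1, 66.3 and 70.9 in Het R525H (0.21 ± 0.071, edgeR adjusted p = 0.702). It also stood above Het empty in Het DDX41, at 68.8, 70.7 and 63.4 CPM (0.18 ± 0.071). In G173R against Het empty 4 of the 37 were positive, beside 48.8% of all genes, with a median of -0.063. With wild-type DDX41 against Het empty 8 of the 37 were positive, beside 47.8% of all genes, with a median of -0.038. Library 3 of each vector group stood lower than its other libraries in some of the factors. Fbl, the methyltransferase of ribosomal RNA, had 154, 168 and 142 CPM in Het empty and 170, 178 and 112 in Het G173R. It had 172, 171 and 121 CPM in Het DDX41 and 171, 176 and 121 in Het R525H. The numbers of positive factors without these libraries were not computed.

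Host genes of small nucleolar RNAs, whose spliced RNAs often begin with a TOP motif, and recycling factors each had 1 call. Of 16 host genes tested 1 rose between R525H and G173R: Snhg1, from 217, 195 and 184 to 334, 343 and 355 CPM (0.79 ± 0.11, edgeR adjusted p = 0.0215). Gas5 had 270 ± 9.29 and 406 ± 30.7 CPM there (0.59 ± 0.12, edgeR adjusted p = 0.0947). It was also higher in Het DDX41 (359 ± 21.4 CPM) than in Het empty (278 ± 21.2 CPM; 0.37 ± 0.12). Of 14 ubiquitin ligases and recycling factors 1 rose between R525H and G173R. This was Hbs1l, which frees stalled ribosomes, from 223, 210 and 202 to 275, 287 and 280 CPM (0.41 ± 0.066, edgeR adjusted p = 0.0418). In both genes the groups did not overlap, while no ribosomal protein gene was called in this comparison. Of 16 genes of the p53 response to ribosome stress, 1 rose between the lines, where 3.66% of all genes were called: Plk2, from 1.57, 1.69 and 3.09 to 11.5, 12.1 and 28.0 CPM (3.02 ± 0.70, edgeR adjusted p = 0.0262). The other 15 had no call, and 4 of the 16 were positive, with a median of -0.078. Some genes of this list went with library number. In library 3 Mdm2 had 223 (WT empty), 171 (Het empty), 193 (Het DDX41), 204 (Het G173R) and 178 CPM (Het R525H). It had 102 to 129 CPM in the other libraries. Trp53 went the other way and was lowest in library 3 of each group. Among the markers of cell type, Ptprc rose (0.70 ± 0.082) and Flt3 (-0.65 ± 0.089) and Gata1 (-1.80 ± 0.34) fell between the lines, all by edgeR at adjusted p = 0.00605 or less. The 7 progenitor markers summed to 1190 to 1310 TPM in WT empty and 955 to 1160 in Het empty, and the 7 erythroid markers to 7.19 to 11 and 3.66 to 5.41 TPM. Their part in the ribosomal protein values was not tested.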

How the data were processed

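RNA of 15 samples was read from the deposited gene tables. The authors made the expected counts (estimated reads per gene, not normalized) and the TPM values (scaled by length and to a common total) with RSEM, per the submitters' processing notes and the headers. The RSEM version, aligner and build are not given in sources used here. The deposited FPKM values were not used. Libraries are stranded total RNA per the labels' protocols.

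Expected counts were rounded, filtered with filterByExpr (14548 genes) and scaled by TMM. The main test was the quasi-likelihood model of edgeR 4.0.16 (R 4.3.3) on all 15 libraries, with no term but the group and Benjamini-Hochberg adjustment over all genes tested. SE is the fold change over the square root of F. Alternatives used DESeq2 1.42.0, limma 3.58.1 on log2(TPM + 1), other size factors and filters, and a replicate block; the fit was tested on simulated data. The block is supported where all 3 same-numbered pairs correlated over 0.1 across genes in their deviations from group means: Het empty against WT empty (0.358 to 0.49), G173R against Het empty (lowest 0.181) and the comparisons between DDX41 forms (lowest 0.28). The pairing comes from the data, since the labels give only a number.

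Members and lists were chosen with earlier results of these data known. Named genes are the 3 members with the smallest p in each direction, preset blood disease, stalk and paralog genes, the extremes of level and variation, and called list genes or else the 1 or 2 with the smallest p. Rps10, Rpl12, Rps13, Fbl, Pecam1, Mdm2, Trp53 and those given for groups that did not overlap were chosen after their values were seen. Promoter windows are RefSeq's. Intervals of fold changes are at 95%.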

Additional observations from a re-analysis of the deposited data

How the results depend on the processing

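No member was called at an adjusted p under 0.05 in any alternative run. These used RLE size factors, totals and TMM factors without members, mitochondrial and structured RNA genes, no filter or a stricter filter. Others used the replicate block, DESeq2 or limma on TPM, or left out each library. At a looser limit of 0.10 the main test also called no member (smallest adjusted p = 0.363 by edgeR). With the block, the test over 5 groups had at least 1 member under that looser limit. With the replicate block the smallest adjusted p of a member in a comparison was 0.176, and 0.068 in the test over 5 groups; calls over all genes rose from 532 to 1352 between the lines, from 2 to 63 for R525H against Het empty, from 0 to 59 for R525H against DDX41, from 12 to 141 for R525H against G173R and from 538 to 1762 over 5 groups, and the block changed no call of a member. DESeq2 called 767, 48, 32, 103 and 1110 in the same order. The stricter filter called 12 for R525H against Het empty, 6 against DDX41 and 18 against G173R. The number of members with an unadjusted p under 0.05 depended on the setting. Between the lines it was 0 by the main test, 1 with the block, 1 by DESeq2 and 14 by limma on TPM (smallest adjusted p = 0.117). For R525H against Het empty it was 3, 8, 6 and 7 in the same order. The shares of all genes under these alternatives are not given here.

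The median difference between the lines was -0.169 by limma on TPM, where Rps26 turned to -0.04 and Rplp2 to -0.02; the median of all genes moved by a like amount to -0.156. The log2 ratio of summed TPM between Het empty and WT empty was -0.008 without mitochondrial and structured RNA genes, 0.011 by share of expected counts and -0.084 without WT empty 3, an alternative chosen after seeing the data, as was leaving out WT empty 1 with Het empty 1.

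Leaving out 1 library moved the family's median between -0.014 and 0.104 for the lines, 0.021 and 0.096 for DDX41, -0.026 and 0.050 for G173R, and 0 and 0.082 for R525H against Het empty. Signs of single genes turned for Rps25 (-0.09 to 0.02) and Rps3a1 (-0.11 to 0.01) between the lines, for Rpl36 (-0.30 to 0.05), Rplp2 (-0.22 to 0.12) and Rplp1 (-0.18 to 0.11) in DDX41 against Het empty, for Rpl13 (0 to 0.11), Rps19 (-0.05 to 0), Rps27l (-0.13 to 0.08) and Rpl7l1 (-0.11 to 0.09) in G173R against Het empty, and for Rpl36 (-0.04 to 0.36), Rplp2 (-0.07 to 0.24) and Rps21 (-0.04 to 0.12) in G173R against DDX41. Depth limits what can be said of Rpl3l, Rpl10l and Rpl39l.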
